A study of Mus musculus with 6 samples.

Results

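The AP-1 family examined here comprised 9 genes, Jun, Junb, Jund, Fos, Fosb, Fosl1, Fosl2, Atf3 and Maff, which were taken by gene name from the 34745 genes listed for each liver. The livers came from WT mice, stated in the study's methods to be male C57BL/6J aged 8 to 10 weeks, that were fasted for 12 hours and then injected with saline or with acetaminophen (APAP). APAP was given as a single intraperitoneal dose of 300 mg/kg and the livers were sampled at 12 hours, while the labels give no sampling time for the saline mice. Total RNA of whole liver was sequenced, and the read counts of 2 APAP livers (replicates 1 and 3) and 3 saline livers (WT1, WT2 and WT3) were compared. APAP replicate 2 was not analysed here. The columns named WT were taken as the saline group because they were the only counts not named for APAP, and their numbers could not be matched to the numbered saline samples. All mice shared the fast, so no fed liver stood behind either group.

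AP-1 is a dimer of leucine zipper proteins in which a JUN protein pairs with a FOS, ATF or another JUN protein and binds DNA at the TPA response element or the related cAMP response element. FOS proteins cannot form stable dimers with each other and need a JUN partner, whereas JUN proteins can pair among themselves. Several of the genes are immediate early genes, silent or low in resting cells and transcribed within minutes of stress or growth factor signals through the JNK, p38 and ERK kinases. In liver, c-Jun is known for its role in hepatocyte survival and regeneration, and JNK signaling is a known mediator of APAP hepatotoxicity.

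The 5 libraries held between 13378445 and 15976339 counts, and 3 counts, used here as the floor of detection, equaled 0.176 to 0.269 counts scaled to library size (CPM). Markers of other cells moved with treatment. The summed level of 9 neutrophil markers was 75.5 to 117 CPM in APAP livers and 4.03 to 8.28 CPM in saline livers, all 7 of those tested rose, and Ly6g, Mpo and Camp had at most 3 counts in every saline library. The 6 hepatocyte markers summed to 64724 to 107907 CPM with APAP and 113486 to 154356 CPM with saline, with none passing the test. Summed levels of 6 monocyte, 6 Kupffer cell, 6 sinusoidal endothelial, 6 stellate and 6 lymphocyte markers overlapped between the groups. Of these, 3 of the 6 monocyte markers and 1 of the 6 stellate markers rose. The 5 cholangiocyte markers summed to 347 to 355 CPM with APAP and 47.1 to 51.9 CPM with saline, most of it Spp1, and 2 of the 5 rose. For comparison with these counts, 3.7% of all tested genes rose. The libraries also differed in sex-linked genes: 4 Y-linked genes summed to 171 and 126 CPM in the APAP livers and to 0, 0 and 0.134 CPM in the saline livers. Xist, transcribed from the inactive X chromosome, was at 0.764 and 1.73 CPM in the APAP livers and at 290 to 914 CPM in the saline livers. Since the sex-linked genes separated the same libraries as the treatment, sex and treatment cannot be told apart for any difference below, although the methods state male mice. The part of these cell and sex markers in the AP-1 results was not tested. In bulk liver, a change in the number of cells of a type cannot be told apart from a change in RNA per cell.

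Transcripts of the AP-1 family were higher in the APAP livers. Of the 9 genes, 7 rose (Jun, Junb, Fos, Fosb, Fosl1, Atf3 and Maff), none fell, and Jund and Fosl2 did not pass the test, an adjusted p under 0.05 by the quasi-likelihood F test of edgeR after Benjamini-Hochberg correction across 13734 genes. The number that rose was 3 without APAP replicate 3, without WT1 or without WT2, and 7 without APAP replicate 1 or WT3. For comparison, 7.23% of all tested genes passed at this threshold, 3.7% rising and 3.53% falling. At the looser threshold of a fold change of at least 1.5 with an unadjusted P under 0.05, 8 of the 9 genes were higher, against 12.3% of tested genes. The same number, all but Jund, had both APAP livers above every saline liver, against 24% of tested genes, and none had both below, against 20.1%. The median log2 fold change was 3.95 for the 9 genes and 0.030 for all genes. Only 7 of the 9 reached the expression filter in at least 2 saline livers, since Fosb and Fosl1 were at or under 3 counts in each saline liver and entered the test through the APAP livers. P values here measure the spread between these libraries. The methods state biological repeats for the experiments in general, and the labels do not tie a library to a mouse.

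Promoter sequence of 6 members that rose is shown because the response elements known to drive immediate early and stress transcription lie close to the start site. Each run below covers bases 200 to 21 before the RefSeq start site on the coding strand (GRCm38.p6), with motif matches in capitals: the cAMP response element core TGACG in Fos, Fosb and Junb, the full element TGACGTCA in Maff, TGACATCA in Jun, and in Atf3 the reverse complement of TGATGNAA, the response element of C/EBP and ATF4.
Jun, chr4:95052243-95052422, minus strand: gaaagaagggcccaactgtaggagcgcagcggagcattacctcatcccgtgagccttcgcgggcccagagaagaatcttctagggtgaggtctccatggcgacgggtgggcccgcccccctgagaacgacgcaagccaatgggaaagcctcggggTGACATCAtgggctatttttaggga
Junb, chr8:84978769-84978948, minus strand: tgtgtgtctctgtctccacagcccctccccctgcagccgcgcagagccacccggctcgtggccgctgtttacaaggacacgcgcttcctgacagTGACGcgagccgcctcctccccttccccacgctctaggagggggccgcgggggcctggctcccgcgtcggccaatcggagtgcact
Fos, chr12:85473690-85473869, plus strand: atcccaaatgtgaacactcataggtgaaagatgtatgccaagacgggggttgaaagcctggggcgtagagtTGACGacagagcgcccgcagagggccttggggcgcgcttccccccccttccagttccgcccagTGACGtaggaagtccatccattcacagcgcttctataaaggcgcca
Fosb, chr7:19310066-19310245, minus strand: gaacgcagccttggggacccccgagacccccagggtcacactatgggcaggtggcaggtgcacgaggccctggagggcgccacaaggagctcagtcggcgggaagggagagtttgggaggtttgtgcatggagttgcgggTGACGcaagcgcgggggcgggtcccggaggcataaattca
Atf3, chr1:191183354-191183533, minus strand: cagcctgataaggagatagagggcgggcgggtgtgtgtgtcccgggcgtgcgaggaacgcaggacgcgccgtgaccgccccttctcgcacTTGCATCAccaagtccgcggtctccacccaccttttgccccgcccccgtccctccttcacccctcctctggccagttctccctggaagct
Maff, chr15:79347320-79347499, plus strand: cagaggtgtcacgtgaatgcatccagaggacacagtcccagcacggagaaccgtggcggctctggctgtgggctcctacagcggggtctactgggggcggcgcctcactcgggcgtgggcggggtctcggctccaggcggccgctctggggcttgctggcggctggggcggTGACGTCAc

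Both strands of 300 bases around each start (250 before to 50 after) were searched in 32851 promoters of 27025 genes, in which 8 of the 9 members were represented and Fosl1 was not. TGACG was found in 5 of the 8, Fos, Fosb, Junb, Atf3 and Maff, and in 23.0% of all genes. Its first base lay 129 and 66 bases before the Fos start, 60 before that of Fosb and 106 before that of Junb. The full element TGACGTCA, which contains TGACG, was found in Maff alone among the members, 29 bases before the second of its 3 listed starts, and in 2.03% of all genes. TGATGNAA was found in Atf3, 110 bases before its start, and in 4.51% of genes. TGACATCA, known from the Jun promoter and added to the search after the data were seen, lay 45 bases before the start of Jun and of the last Maff start, and in 4.18% of genes. The AP-1 site TGANTCA was in none of the 8 windows and in 8.97% of genes, and the CArG box was in none and in 1.81% of genes. The start used for Atf3 lies inside the deposited span of the gene, which has a further start upstream. These are matches of letters in a window, and no binding was measured. A site more than 250 bases before a start lay outside the search, so a motif not found here may still be present further upstream.

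The JUN family genes, which supply the partner that FOS proteins require, differed among themselves. Jun (ENSMUSG00000052684, GRCm38 chr4:95049034-95052222, minus strand), which encodes c-Jun, was at 88.0 and 555 CPM in APAP replicates 1 and 3 and at 15.3, 10.8 and 36.0 CPM in WT1, WT2 and WT3. Both APAP livers lay above the saline livers, but they were 6.30-fold apart, a gap that only 2.52% of tested genes matched or exceeded. The mean was 321 ± 330 CPM (SD, n = 2) with APAP and 20.7 ± 13.4 CPM (n = 3) with saline, a 15.5-fold ratio, and the log2 fold change was 3.95 with an SE of 0.82 (edgeR adjusted p = 0.0379). The call depended on single libraries. The log2 fold change was 2.07 without APAP replicate 3 (adjusted p = 0.131), 3.78 without WT1 (adjusted p = 0.109) and 3.64 without WT2 (adjusted p = 0.139). It was 4.74 without APAP replicate 1 and 4.62 without WT3, and passed the test in both. The antisense gene Junos, which overlaps Jun, held at most 0.868% as many counts.

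Junb (ENSMUSG00000052837, chr8:84976909-84978748, minus strand) encodes a JUN protein that activates transcription more weakly than c-Jun at many targets. It was at 35.3 and 96.2 CPM in the APAP livers and at 15.8, 8.97 and 20.3 CPM in the saline livers, so that the lowest APAP liver was 1.74-fold above the highest saline liver. The means were 65.8 ± 43.1 and 15.0 ± 5.71 CPM, 4.38-fold apart, and Junb rose by 2.13 on the log2 scale with an SE of 0.48 (edgeR adjusted p = 0.0468). That call was close to the threshold and was kept without APAP replicate 1 (2.68) and lost on leaving out any other library. The log2 fold change was then 1.22 without APAP replicate 3 (adjusted p = 0.205), 2.18 without WT1 (0.110), 1.86 without WT2 (0.145) and 2.41 without WT3 (0.0555).

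Jund (ENSMUSG00000071076, chr8:70697739-70700616, plus strand) encodes the JUN protein known for high expression in resting cells. It was at 50.5 and 93.1 CPM after APAP and at 60.8, 35.6 and 58.9 CPM with saline, so the groups overlapped. The log2 fold change was 0.47 with an SE of 0.35 (edgeR adjusted p = 0.450), and it turned to -0.046 without APAP replicate 3. The deposited span of Jund overlaps the gene model Gm11175, whose counts were at most 0.699% of those of Jund.

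In the FOS family, Fos, Fosb and Fosl1 rose and Fosl2 did not pass the test. Fos (ENSMUSG00000021250, chr12:85473890-85477273, plus strand), encoding c-Fos, was at 11.8 and 32.4 CPM in the APAP livers and at 1.43, 1.26 and 3.67 CPM in the saline livers. The APAP livers differed from each other by 2.76-fold and both stood at least 3.20-fold above the highest saline liver. Means of 22.1 ± 14.6 and 2.12 ± 1.35 CPM gave a 10.4-fold ratio and a log2 fold change of 3.36 with an SE of 0.60 (edgeR adjusted p = 0.0244). Leaving out APAP replicate 3 gave 2.44 (adjusted p = 0.0981), leaving out WT1 gave 3.16 (0.0721) and leaving out WT2 gave 3.09 (0.0987). Without WT3 the value was 4.03 and the gene passed the test.

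Fosb (ENSMUSG00000003545, chr7:19302721-19310045, minus strand) encodes the FOS protein whose spliced form deltaFosB accumulates after repeated stimulation. It was counted 45 and 125 times in the APAP livers, or 2.64 and 7.73 CPM, and 2, 0 and 2 times in the saline livers. Against the highest saline level that 3 counts per library could hide, Fosb was at least 19.3-fold higher with APAP (edgeR adjusted p = 0.0179). The bound fell to 9.83 when APAP replicate 3 was left out and was 28.7 when replicate 1 was. The call was lost without APAP replicate 3 (adjusted p = 0.0908) and without WT2 (adjusted p = 0.0630). At these counts the level of Fosb in saline livers was not measurable.

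Fosl1 (ENSMUSG00000024912, chr19:5447703-5455945, plus strand), encoding FRA-1, a FOS protein that lacks the transactivation domain of c-Fos, separated the groups most. It was counted 362 and 369 times in the APAP livers (21.3 and 22.8 CPM) and 0, 0 and 1 times in the saline livers. The APAP livers were within 1.07-fold of each other, the closest of any member, and Fosl1 was at least 82.0-fold higher than the saline floor (edgeR adjusted p = 0.00111). The bound stayed between 79.1 and 84.8 with either APAP liver left out, and the gene passed the test with any library left out. Ccdc85b on the opposite strand overlaps Fosl1, and whether counting used the strand was not given in the sources used here. Ccdc85b had 94 and 91 counts with APAP and 46, 64 and 54 with saline, up to 26.0% of the Fosl1 count in an APAP liver, and its log2 fold change was 0.48 (adjusted p = 0.367). Fosl1 was at 0 or 1 count in the same saline livers in which Ccdc85b was counted.

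Fosl2 (ENSMUSG00000029135, chr5:32135801-32157842, plus strand) encodes FRA-2, which is closely related to FRA-1. It was at 21.8 and 35.9 CPM after APAP and at 8.78, 8.30 and 21.4 CPM with saline, and the lower APAP liver exceeded WT3 by only 1.02-fold. The means were 28.9 ± 9.98 and 12.8 ± 7.41 CPM, 2.25-fold apart, and the log2 fold change of 1.17 with an SE of 0.45 did not pass the test (edgeR adjusted p = 0.172). Without WT3 alone among the libraries it passed, at 1.75 (adjusted p = 0.0323).

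Atf3 and Maff belong to other branches of the leucine zipper class, and both rose. Atf3 (ENSMUSG00000026628, chr1:191170296-191218039, minus strand) encodes a stress-induced factor that represses transcription as a homodimer and pairs with JUN proteins. It was at 195 and 110 CPM after APAP and at 2.06, 1.33 and 3.67 CPM with saline, and the lower APAP liver lay 29.9-fold above the highest saline liver. Means of 153 ± 60.5 and 2.35 ± 1.20 CPM gave a 64.8-fold ratio and a log2 fold change of 6.01 with an SE of 0.48 (edgeR adjusted p = 0.00219). The values ranged from 5.54 to 6.50 on leaving out each library in turn, with the gene passing the test in each case. Atf3 is also a target of ATF4 in the integrated stress response. Atf4 itself had a log2 fold change of 0.73 (adjusted p = 0.0904) and Ddit3, another ATF4 target, of 1.53 (adjusted p = 0.175).

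Maff (ENSMUSG00000042622, chr15:79347541-79359072, plus strand) encodes a small MAF protein, which has no transactivation domain and pairs with FOS or with the CNC factors that include NRF2. It was at 85.0 and 103 CPM after APAP and at 5.02, 2.06 and 10.1 CPM with saline. The APAP livers differed by 1.22-fold, and the lower exceeded WT3 by 8.42-fold. Means of 94.2 ± 13.04 and 5.72 ± 4.06 CPM gave a 16.5-fold ratio and a log2 fold change of 4.04 with an SE of 0.57 (edgeR adjusted p = 0.0128). Without WT1 the adjusted p was 0.0502 at a log2 fold change of 3.97, and without WT3 the change was 4.75.

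**Figure D1:**
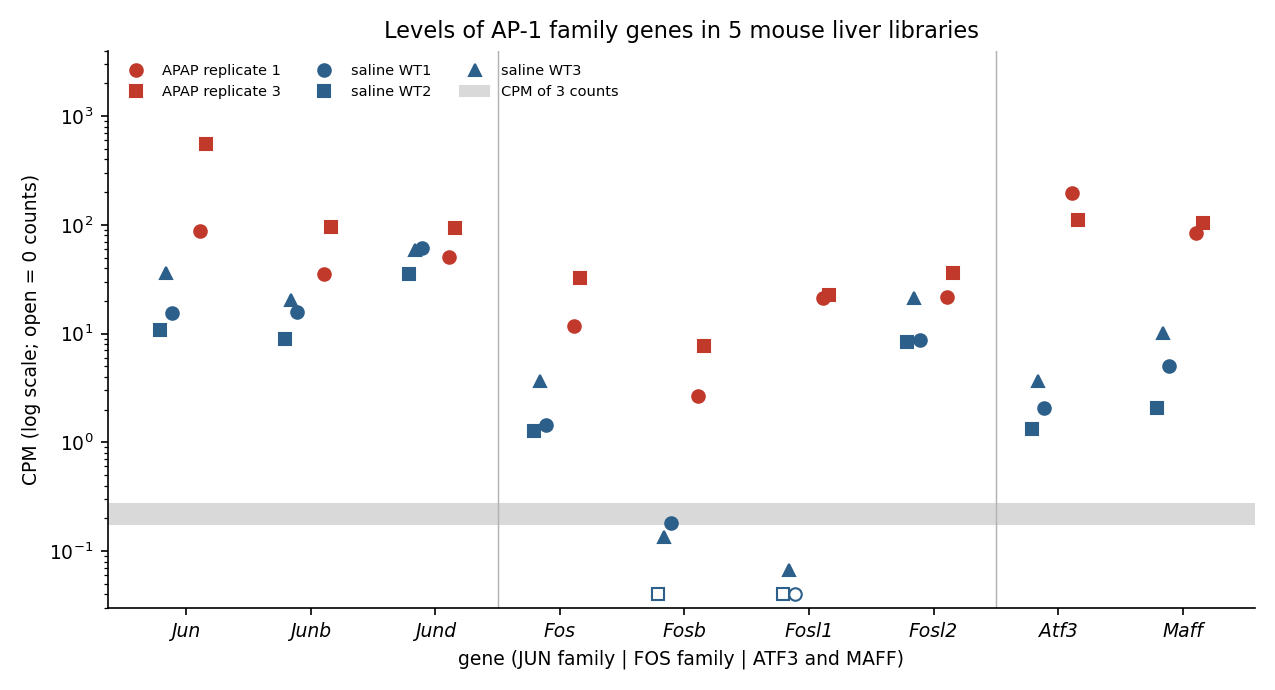
Level of each AP-1 family gene in CPM on a log axis, 1 point per library, with APAP livers in red and saline livers in blue. Grey marks the CPM of 3 counts and open symbols mark 0 counts. Groups overlap for Jund alone, Fosb and Fosl1 lie at or below the grey band in saline livers, and WT3 is the highest saline liver for most genes.

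**Figure D2:**
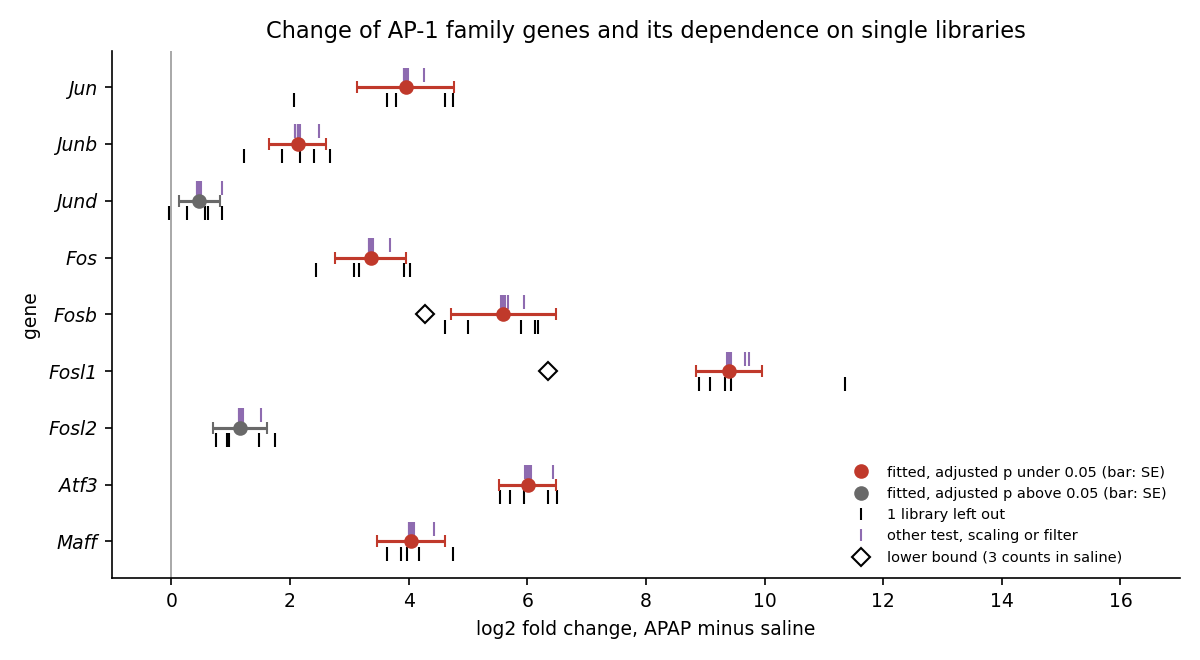
Log2 fold change (APAP minus saline) of each gene, with bars for SE, red for an adjusted p under 0.05 and ticks for the value with 1 library left out or with another test, scaling or filter. Jun ranges from 2.07 to 4.74 with 1 library left out and Atf3 from 5.54 to 6.50, and diamonds give the lower bounds of Fosb and Fosl1.

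The members also differed between livers of 1 group. WT3 was the highest saline liver for 7 of the 9, the exceptions being Jund and Fosb and with Fosl1 included by its 1 count, against 36.1% of all tested genes. In WT3, Jun was 2.75-fold, Fos 2.73-fold, Maff 2.85-fold, Fosl2 2.50-fold and Atf3 2.17-fold the mean of WT1 and WT2. Among the APAP livers, replicate 3 was above replicate 1 for 8 of the 9, against 51.8% of tested genes. Atf3 was the exception, with replicate 3 at 0.562 of replicate 1. These counts describe single libraries and the genes are not independent of each other. The summed neutrophil markers were higher in APAP replicate 1 (117 CPM) than in replicate 3 (75.5 CPM). The summed Kupffer cell markers were 205 CPM in replicate 1 and 385 CPM in replicate 3. Replicate 3 was also above replicate 1 for hepatocyte (107907 against 64724 CPM), monocyte (155 against 98.4), sinusoidal endothelial (170 against 108) and stellate (350 against 287) markers. The cholangiocyte (355 against 347) and lymphocyte (4.76 against 4.29) sums differed less. Within the saline group, the neutrophil markers were highest in WT3 at 8.28 CPM.

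Levels were compared between genes after division by transcript length, as CPM per kb of the longest coding transcript, or of the deposited span for the single-exon JUN genes. In saline livers the order of the means was Jund (18.0 CPM per kb), Junb (8.16), Jun (6.50), Maff (2.92), Fosl2 (1.96), Atf3 (1.19) and Fos (1.01), with Fosb and Fosl1 at or under 3 counts. Jund was above every other member in each of the 3 saline livers. From Junb down to Fos, the ranges of every pair of neighbors in this order overlapped across livers. Within each saline liver, Jun was above Maff, Fosl2 above Atf3 and Atf3 above Fos. The order was reversed for Junb and Jun in WT3 and for Maff and Fosl2 in WT2. In APAP livers the order, at the deposited span of Jund, was Jun (101 CPM per kb), Atf3 (76.9), Maff (48.1), Junb (35.7), Jund (25.0), Fosl1 (11.8), Fos (10.5), Fosl2 (4.41) and Fosb (1.37). Ranges of neighbors overlapped across livers except for Atf3 over Maff, Jund over Fosl1, Fos over Fosl2 and Fosl2 over Fosb. Within each APAP liver, Maff was also above Junb, and Junb above Jund at the deposited span. Jun and Atf3 changed places between the APAP livers, as did Fosl1 and Fos. Jun ranged from 27.6 to 174 CPM per kb, so its first place rested on APAP replicate 3. In replicate 1 Atf3 stood first at 98.4 CPM per kb. With the shorter coding transcript of Jund, of 1.67 kb and chosen after the data were seen, Jund was at 30.3 and 55.8 CPM per kb in the APAP livers, above Junb at 19.2 and 52.3, so the order of these neighbors depends on the length taken.

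The makeup of each family, given as shares that do not depend on scaling between libraries, differed between the groups. Jund supplied 61.2%, 59.9% and 47.8% of JUN family transcripts per length in the saline livers and 27.3% and 12.5% in the APAP livers. Jun supplied 13.9%, 16.4% and 26.4% with saline and 42.9% and 67.3% with APAP. At this length Jund held the largest share in every saline liver and Jun in both APAP livers, while the share of Junb overlapped, at 23.6% to 25.8% with saline and 29.8% and 20.2% with APAP. The shares rest on the length taken for Jund. With the shorter transcript, Jund supplied 73.1%, 72.1% and 61.2% in saline livers and 39.3% and 19.8% in APAP livers. Jund was then also the largest in APAP replicate 1, where Jun supplied 35.8%, and Jun was the largest in replicate 3 alone, at 61.7%.

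In the FOS family, Fosl2 supplied 64.9%, 68.0% and 64.3% of transcripts per length in the saline livers and 15.9% and 15.6% in the APAP livers. Fosl1 supplied 0%, 0% and 0.705% with saline and 54.3% and 34.8% with APAP. Fosl1 was the largest contributor in APAP replicate 1 and Fos in replicate 3, where Fos supplied 43.7%. The share of Fos overlapped between the groups, at 32.0% to 34.3% with saline and 26.5% in APAP replicate 1. Fosb supplied 3.33% and 5.81% with APAP and at most 2.29% with saline, a share based on 2 counts.

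Summed per length, JUN family transcripts were at 64.3 and 259 CPM per kb with APAP and at 34.5, 20.6 and 42.8 with saline, a 4.95-fold ratio of means. FOS family transcripts were at 21.02 and 35.1 CPM per kb with APAP and at 2.07, 1.87 and 5.08 with saline, a 9.33-fold ratio. FOS transcripts thereby amounted to 32.7% and 13.6% of JUN transcripts with APAP and to 6.01%, 9.05% and 11.9% with saline, with APAP replicate 3 close to WT3. Of the 11 shares and sums compared by a two-sided exact permutation test over libraries, 9 had groups that did not overlap and gave p = 0.2 (adjusted p = 0.244), the smallest p that 2 against 3 libraries allow. The shares of Junb (p = 1, exact permutation test) and Fos (p = 0.8) overlapped. This test therefore could not reach a p under 0.05 for any share or sum.

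**Figure D3:**
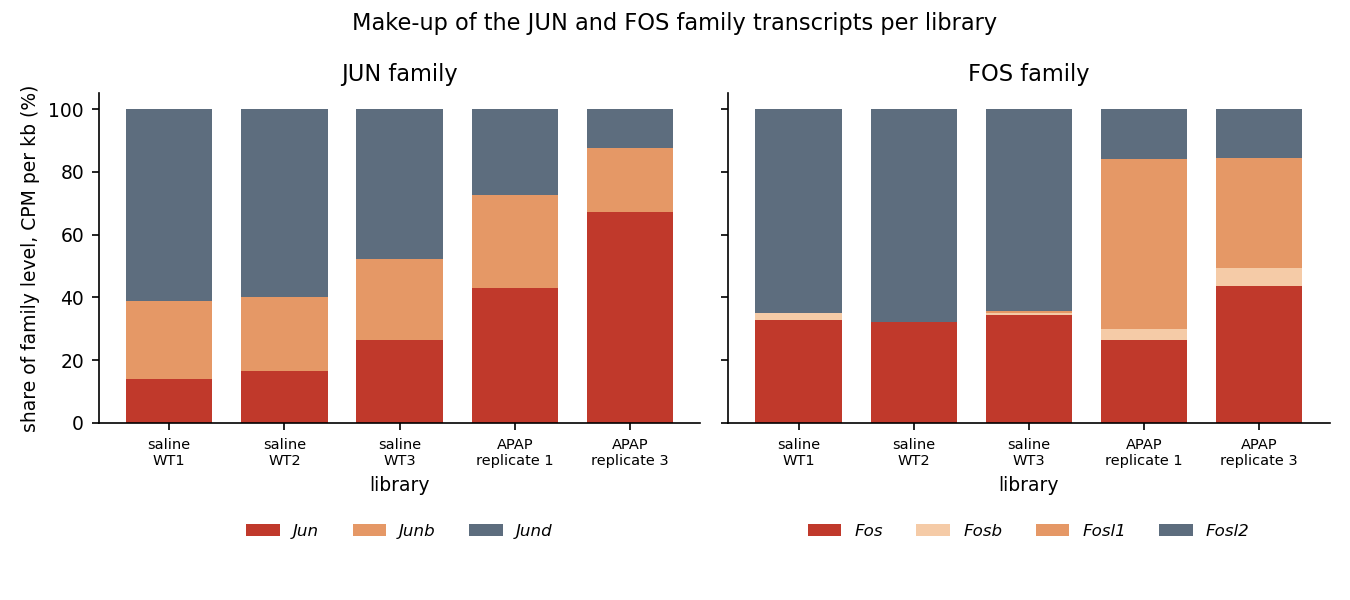
Stacked bars of the share (%) of each member in the summed CPM per kb of its family, for each library, with the JUN family and the FOS family in separate panels. Jund and Fosl2 make up the largest part of each saline bar, and Jun and Fosl1 or Fos the largest part of each APAP bar. Shares of the JUN family use the deposited span of Jund, and with its shorter transcript Jund is the largest in APAP replicate 1.

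The genes whose pattern was nearest to that of each member were found by the root mean square distance of centered log2(CPM + 1) over the 5 libraries, as a description. The nearest to Jun was Egr1 (distance 0.552), a zinc finger immediate early gene at 134 and 294 CPM with APAP and 14.5, 8.97 and 19.9 CPM with saline. The nearest to Fos was Klf6 (0.202), a Krüppel-like immediate early gene at 95.8 and 232 CPM with APAP and 14.0, 14.1 and 22.5 CPM with saline. Maff was nearest to Tnfrsf12a (0.222), which encodes the TWEAK receptor and was at 167 and 157 CPM against 11.6, 6.24 and 18.3 CPM. Fosl1 was nearest to Chil3 (0.0932), a gene on the monocyte marker list, at 24.9 and 23.0 CPM against 0.179, 0.199 and 0.267 CPM. Atf3 was nearest to the Y-linked gene Eif2s3y (0.334), at 51.9 and 35.4 CPM with APAP and 0 in each saline liver. The remaining nearest genes were Efhd2 for Junb (0.204), Treml4 for Jund (0.0981), Arhgap36 for Fosb (0.0943) and Tsc22d2 for Fosl2 (0.0608). Small distances are easier to reach for genes with low levels or small differences.

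Genes around AP-1 were described as lists. Among 16 tested other leucine zipper factors of the AP-1 and cAMP response element class (of 18 listed), none rose and 1 fell, with a median log2 fold change of 0.33. The gene that fell was Cebpa, a hepatocyte differentiation factor, by 1.35 on the log2 scale with an SE of 0.26 (edgeR adjusted p = 0.0330). The change in Cebpa passed the test in only 1 of the 5 fits with 1 library left out. None of the 16 rose at this threshold, although DESeq2 called 2 of them higher. At a fold change of at least 1.5 with an unadjusted P under 0.05, 6 of the 16 passed in either direction, against 23.5% of all tested genes.

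Of 9 tested MAF proteins and partners (of 10), 1 rose, with a median of -0.052. Mafk, like Maff a small MAF gene, was at 58.0 and 58.2 CPM with APAP and 11.7, 9.83 and 19.0 CPM with saline, a log2 fold change of 2.11 with an SE of 0.30 (edgeR adjusted p = 0.0130), and lost the call without APAP replicate 1 or WT2.

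Of 23 tested genes upstream of AP-1 (of 24), for JNK, p38 and ERK cascade kinases and a JNK-binding protein, 1 rose and none fell, with a median of 0.059. That is 4.35% rising, near the 3.7% of all tested genes. The gene that rose was Rps6ka3, encoding the ERK-activated kinase RSK2, at 21.6 and 27.1 CPM with APAP and 3.67, 6.31 and 3.61 CPM with saline (log2 fold change 2.42, SE 0.31, edgeR adjusted p = 0.00963). It passed the test with each library left out. Mapk8, encoding JNK1, had a log2 fold change of 0.059 with an SE of 0.19 (adjusted p = 0.886), and Mapk9, encoding JNK2, of 0.22 with an SE of 0.20 (adjusted p = 0.552). The p38 genes Mapk13 and Mapk11 had log2 fold changes of 3.56 with an SE of 0.97 (adjusted p = 0.0762) and 1.99 with an SE of 0.63 (adjusted p = 0.110), at means of at most 3.38 CPM. Mapk13 was under the filter level in every saline liver and entered the test only through the APAP livers. Mapk11 reached that level in WT3 alone among the saline livers and also needed the APAP livers to be tested. The p38 genes Mapk14 and Mapk12 went the other way, with both APAP livers below every saline liver. Their log2 fold changes were -0.67 with an SE of 0.37 (adjusted p = 0.323) and -0.66 with an SE of 0.43 (adjusted p = 0.394). Mapk14 was the more abundant, at means of 43.0 CPM with APAP and 68.4 CPM with saline. Transcript levels do not measure kinase activity. None of the 6 tested genes for SRF and its ternary complex and MRTF cofactors, which act at the Fos promoter, passed the edgeR test or had an unadjusted P under 0.05, DESeq2 called none either, and their median was -0.18. The most abundant were Elk4 (0.060, adjusted p = 0.900) and Mkl2 (-1.03, adjusted p = 0.238), and without WT1 Mkl2 passed.

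Of 9 tested MAPK phosphatases (of 10), which switch these kinases off, 3 rose (33.3%, against 3.7% of all tested genes) and none fell, with a median of 0.49. Dusp5, a nuclear ERK phosphatase, was at 46.3 and 56.8 CPM with APAP and 1.08, 0.465 and 2.27 CPM with saline, a log2 fold change of 5.32 with an SE of 0.53 (edgeR adjusted p = 0.00448). Dusp4 rose by 3.65 with an SE of 0.40 (adjusted p = 0.00542), and Dusp10, which prefers JNK and p38, by 2.29 with an SE of 0.43 (adjusted p = 0.0284), a call lost without APAP replicate 1, WT2 or WT3. Dusp1, itself an immediate early gene, had a log2 fold change of -0.10 (adjusted p = 0.932).

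Among 13 tested other immediate early genes (of 15 in the table), 7 rose (53.8%, against 3.7% of all tested genes) and none fell, and the median was 2.90. Egr1 rose by 3.89 with an SE of 0.45 (edgeR adjusted p = 0.00666), Myc by 3.31 with an SE of 0.31 (adjusted p = 0.00376) and Klf6 by 3.28 with an SE of 0.42 (adjusted p = 0.00936, lost without WT2). Egr2 was at least 8.82-fold above the saline floor (adjusted p = 0.0179, lost without either APAP liver or WT2). Egr2 was under the filter level in every saline liver and entered the test only through the APAP livers. The others that rose were Ier3, Ier5 and Cyr61. Nr4a1 (-0.52, SE 0.74, adjusted p = 0.715) and Klf4 (-0.14, SE 0.41, adjusted p = 0.874) did not pass the test.

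Of 22 tested textbook AP-1 target genes (of 24), 11 rose (50%, against 3.7% of all tested genes) and none fell. Both APAP livers were above all saline livers for 19 (against 24% of all tested genes). The median log2 fold change was 2.75, or 2.31 with genes at the saline floor set to their bounds. The filter shaped these values. Mmp3, Mmp10, Mmp12, Mmp13, Plau, Timp1, Areg and Sprr1a were under its level of 0.674 CPM in every saline liver. They entered the test only through the APAP livers, which fixed much of their direction in advance. Plaur and Mmp9 reached 0.674 CPM in WT1 alone among the saline livers, which is not enough for the filter. They too needed the APAP livers to be tested. Sprr1a, a small proline-rich protein gene, was at 43.5 and 66.3 CPM with APAP and 0 in each saline liver, at least 204-fold higher (edgeR adjusted p = 0.00194). Mmp10, a stromelysin gene, was at least 43.6-fold higher (adjusted p = 0.0103). The collagenase gene Mmp13 rose by 6.41 with an SE of 0.70 (adjusted p = 0.0055) and the stromelysin gene Mmp3 by 5.97 with an SE of 0.72 (adjusted p = 0.00702). Hmox1, Tnfrsf12a, Spp1, Plaur, Hbegf and Mmp12 were among the others that rose. Spp1 is also on the cholangiocyte list and leukocytes express several of these proteases, and the part of those cells was not tested.

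**Figure D4:**
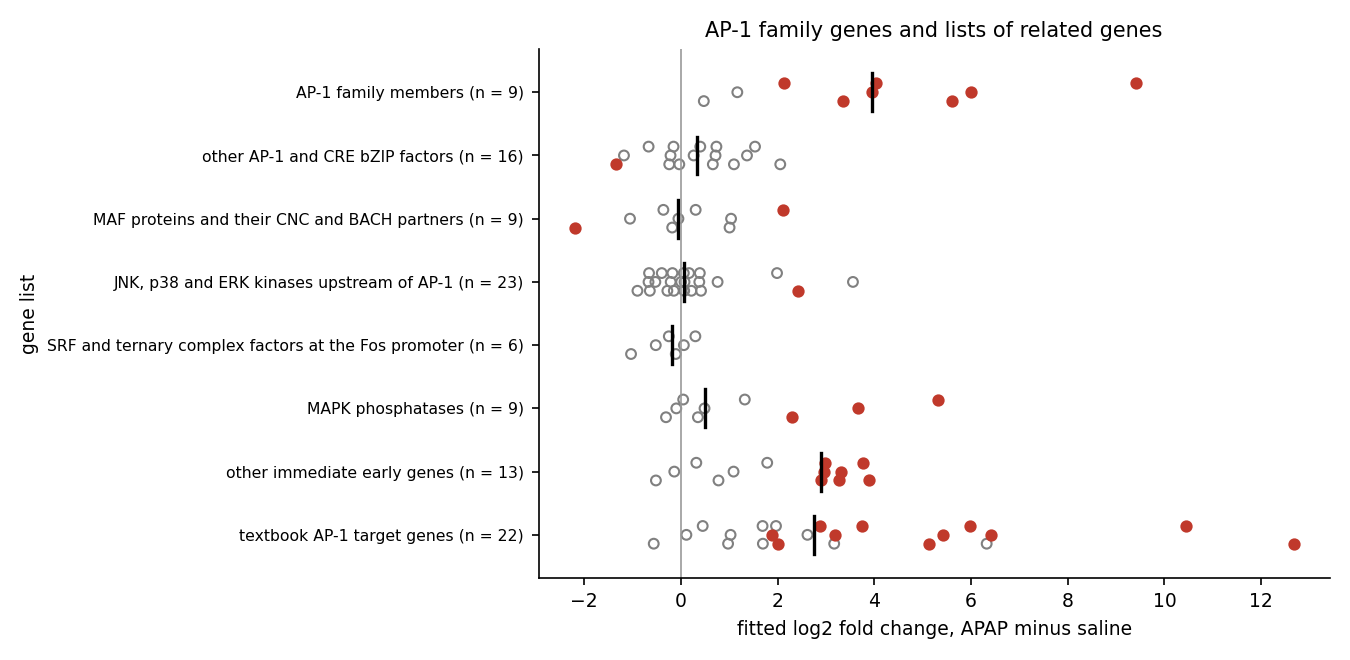
Fitted log2 fold change (APAP minus saline) of every tested gene of the AP-1 family and of 7 lists of related genes, 1 point per gene, with red for an adjusted p under 0.05 and a black bar for the median of the list. Medians of the AP-1 family (3.95), other immediate early genes (2.90) and AP-1 targets (2.75) lie to the right of those of the kinase list (0.059) and of SRF and its cofactors (-0.18).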

How the data were processed

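Liver RNA was sequenced on the Illumina NovaSeq platform. The deposited values are raw read counts per gene, which the authors obtained after HISAT2 alignment to GRCm38 (build per the submitters' processing notes); the tool versions, the annotation and the strand setting are not given in the sources used here. Of 34745 gene identifiers, 34267 were found in GENCODE M21, used here for lengths and overlaps. The 5 deposited FPKM columns were not used. Counts of 2 APAP and 3 saline libraries, which are not duplicates of one another, were filtered (filterByExpr, minimum count 10, minimum total 15), scaled by TMM and tested with edgeR 4.0.16 in R 4.3.3 (quasi-likelihood test, no covariate, Benjamini-Hochberg over 13734 genes); the biological coefficient of variation was 33.3%. The fit was tested on simulated data. CPM used TMM-scaled library sizes, and bounds took 3 counts in the shallowest saline library, which covers counting error only. The members and lists were chosen with earlier results of these data known. All members are named; from each list, up to 4 genes called with the largest change and at least 1 CPM in the higher group, or else the 2 most abundant, plus the gene nearest to each member. Genes named outside this rule were chosen after their values were seen. They were Atf4, Ddit3, Mapk8, Mapk9, Mapk11, Mapk12, Mapk13, Mapk14, Dusp1, Nr4a1, Klf4, Areg, Mmp9, Plau, Timp1 and the further called immediate early and target genes. Some list genes are not reported here. Alternatives were the likelihood ratio and exact tests, DESeq2 1.42.0, other scalings and filters, and leaving out each library.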

Additional observations from a re-analysis of the deposited data

How the results depend on the processing

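With 1 library left out, the number of AP-1 genes that rose ranged from 3 to 7: 3 without APAP replicate 3, without WT1 or without WT2, and 7 otherwise. It was 7 by the edgeR likelihood ratio and exact tests, DESeq2, relative log expression or upper quartile factors, library size only and no filter, and 5 with at least 10 counts in every library, where Fosb and Fosl1 could not be tested. Of 115 member fits under alternatives, 114 had a positive log2 fold change and 77 passed the test. The exception was Jund, which ranged from -0.046 (without APAP replicate 3) to 0.85 with 1 library left out. Elk4 ranged from -0.063 (without APAP replicate 1) to 0.20 and was -0.039 without WT1. Genes called over the whole table numbered 993 here, 1835 by the likelihood ratio test, 1776 by the exact test, 2093 by DESeq2, 235 without APAP replicate 1, 401 without APAP replicate 3, 510 without WT1 and 165 without WT2. Scaling by library size only moved the median of all genes from 0.030 to 0.42 and the share of called genes that were higher from 51.2% to 77.8%. AP-1 targets called higher ranged up to 17 (likelihood ratio test) and down to 7 (at least 10 counts in every library), against 11. Of those 11, Mmp3, Mmp10, Mmp12, Mmp13, Plaur and Sprr1a could not be tested with at least 10 counts in every library. Immediate early genes called higher numbered 4 without WT2, against 7. MAPK cascade kinases called higher numbered 3 by the likelihood ratio and exact tests and 2 by DESeq2, with library size only or with no filter, against 1. MAF genes called higher numbered 2 by the likelihood ratio test, the exact test, DESeq2 and library size only, and 0 without APAP replicate 1 or WT2, against 1. Other leucine zipper factors called higher numbered 0 here, 2 by DESeq2 and 1 by the likelihood ratio and exact tests, with library size only, with no filter, with at least 10 counts in every library, without WT2 and without WT3. No paired analysis was possible because the numbers of the saline columns could not be matched to the numbered samples and the libraries do not share a stated pairing. Depth limits Fosb and Fosl1 in saline livers, which were at or under 3 counts.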
